A study of Mus musculus with 6 samples.

Results

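The 4 Id genes and 6 other genes of bone morphogenetic protein (BMP) signalling were followed in mouse neural progenitor cells (NPCs) in which the repressor SPEN can be degraded. The 10 genes were chosen by name from the 53801 genes counted in each library. They are Id1, Id2, Id3 and Id4, the inhibitory Smads Smad6 and Smad7, the signal-carrying Smad9, the decoy receptor Bambi, the ligand Bmp4 and the receptor Bmpr1a. The NPCs had been differentiated from embryonic stem cells of the hybrid strain BL/6J x CAST-EiJ and subcloned, and SPEN carried an auxin-inducible degron in all of them, the untreated cells included. There were 6 RNA-seq libraries. A group treated with auxin (500 uM) for 24 h, a group treated for 48 h and an untreated group held 1 library each of the subclones CL31 and CL30, called clones 31 and 30 here. Each clone is a single line. On treatment group alone, p-values set a change against the spread between these 2 lines. With the clone as a block they measure how alike the changes were in the 2 lines. Between the clones they measure how steady the difference was over the treatment groups, and they cover no other lines. No auxin-treated cells without the degron were analysed here, so an action of auxin itself and the loss of SPEN cannot be told apart. The medium held EGF and FGF (10 ng/ml each), and the labels name no added BMP.

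BMP ligands bind a pair of type I and type II receptors, which phosphorylate Smad1, Smad5 and Smad9. These Smads move into the nucleus with Smad4 and switch on target genes, of which the Id genes are among the most direct. Id proteins have a helix-loop-helix domain and no DNA-binding domain, so they hold E proteins and block the bHLH factors that need them, including proneural factors. Smad6, Smad7 and Bambi are themselves BMP targets and dampen the pathway. In neural progenitors, BMP signalling is known for favouring astrocytes over neurons, and Id proteins for holding cells in a dividing, undifferentiated state.

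Total counts ran from 24603816 to 43008978 per library. Spen, the targeted gene, had 259 and 199.7 CPM (counts scaled to the normalized library size) in clones 31 and 30 at 48 h, against 115.7 and 92.4 CPM in the untreated libraries. Its transcript at 48 h was higher in a fit with the clone as a block (log2 change 1.14 ± 0.08 SE, edgeR, adjusted p = 0.02382) and was not called without it (adjusted p = 0.1393). The degron acts on the protein, so the transcript does not show how much SPEN remained. Of 9 NPC markers, 8 passed the filter on low counts, among them Nes (648 to 1895 CPM) and Sox2 (191.7 to 472 CPM), while Sox1 had at most 2 counts. The pluripotency markers Pou5f1, Zfp42, Dppa5a and Utf1 were at 0 in every library.

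Promoter sequence was found in RefSeq (build GRCm38.p6) for 7 of the 10 genes, and 3 are shown. Id4 had the largest change of the 10, Smad6 was the low-level gene called between 24 h and 48 h, and Smad9 was tested and not called. In these 3 the 250 bases before the RefSeq start lie wholly outside the deposited gene. Capitals mark the GC-rich GGCGCC of BMP-responsive elements and TGGGAA (or TTCCCA on the other strand), the core of the site of the Notch factor RBPJ.
Id4 (chr13:48260866-48261115, plus strand): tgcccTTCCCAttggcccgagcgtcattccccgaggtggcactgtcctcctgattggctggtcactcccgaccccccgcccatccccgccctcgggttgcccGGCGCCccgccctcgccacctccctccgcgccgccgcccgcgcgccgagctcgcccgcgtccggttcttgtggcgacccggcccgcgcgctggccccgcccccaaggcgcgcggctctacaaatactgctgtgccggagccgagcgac
Smad6 (chr9:64022060-64022309, minus strand): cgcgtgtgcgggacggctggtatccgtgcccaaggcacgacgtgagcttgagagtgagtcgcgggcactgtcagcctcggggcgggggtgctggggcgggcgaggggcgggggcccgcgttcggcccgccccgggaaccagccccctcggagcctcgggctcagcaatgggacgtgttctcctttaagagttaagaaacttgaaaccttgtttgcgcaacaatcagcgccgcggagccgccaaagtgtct
Smad9 (chr3:54755332-54755581, plus strand): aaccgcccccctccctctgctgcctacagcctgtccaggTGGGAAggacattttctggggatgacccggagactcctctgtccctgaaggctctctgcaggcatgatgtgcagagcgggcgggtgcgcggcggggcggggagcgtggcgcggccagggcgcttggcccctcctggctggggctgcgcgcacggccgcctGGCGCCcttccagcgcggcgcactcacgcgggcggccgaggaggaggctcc

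The Id4 window was 75.6% G and C, against a median of 52.4% over the 32851 promoter windows in the table. Its GGCGCC begins 148 bases before the start and its TTCCCA 245 bases before it. Smad9 held the same pair of motifs, with TGGGAA 211 bases and GGCGCC 51 bases before the start, and Smad6 held neither. GGCGCC reads the same on both strands and was present in 9.59% of all windows, and TGGGAA, searched on both strands, in 21.6%. Over the 7 genes, GGCGCC was present in 4 (Id2, Id4, Smad9 and Bmpr1a) and TGGGAA in 3 (Id4, Smad9 and Bmpr1a). All 7 windows were richer in G and C (62.8% to 78.8%) than the median window, so the shares over all windows are no matched background. The Smad box CAGAC (or GTCTG) was present in 1 of the 7, Id3, with 2 copies, and in 42.2% of all windows. No 2 of these motifs overlapped. These matches describe the letters of the windows and show no binding.

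Per length of transcript, Id3 was the most abundant of the 10 genes, at 276.6 to 453.5 TPM (counts divided by exon length and scaled to the same total in each library) over the 6 libraries. Bmpr1a followed at 122.6 to 158.2 TPM and was below Id3 in all 6 libraries. Id2 (41.9 to 68.1 TPM) and Id1 (44.1 to 55.3 TPM) could not be ordered, since Id2 was the higher of the pair in 3 of 6 libraries. Bambi was at 7.08 to 10.1 TPM in every library, whereas Id4 ran from 0.450 to 53.5 TPM and crossed it. Smad7 (1.996 to 3.92 TPM), Smad6 (0.590 to 2.44 TPM) and Smad9 (0.156 to 0.575 TPM) followed, in that order in all 6 libraries. Bmp4 came last with 10 counts in all 6 libraries together. The highest CPM of a gene was 112 times its lowest for Id4, 4.44 times for Smad6 and 1.31 times for Id1.

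The first question was which of these genes changed after auxin treatment. At 48 h Id4 rose in a fit with the clone as a block, from very different starting levels in the clones, while Id1 and Id3, which are classical BMP targets, gave no call. Id4 (chromosome 13, 48261228 to 48266026, GRCm38) had 243 counts in clone 31 and 1558 in clone 30 at 48 h, against 22 and 309 untreated. That is 9.15 and 50.4 CPM at 48 h, against 0.550 and 12.4 CPM untreated. The groups overlapped, because clone 31 at 48 h was below untreated clone 30, but each clone was higher than itself. Within clone 31 the log2 difference was 4.06 (95% interval 3.43 to 4.76), and within clone 30 it was 2.02 (1.85 to 2.20), where the intervals cover counting error only. The intervals of the clones do not overlap, and with 1 library per clone and time this difference between clones was not tested.

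**Figure D1:**
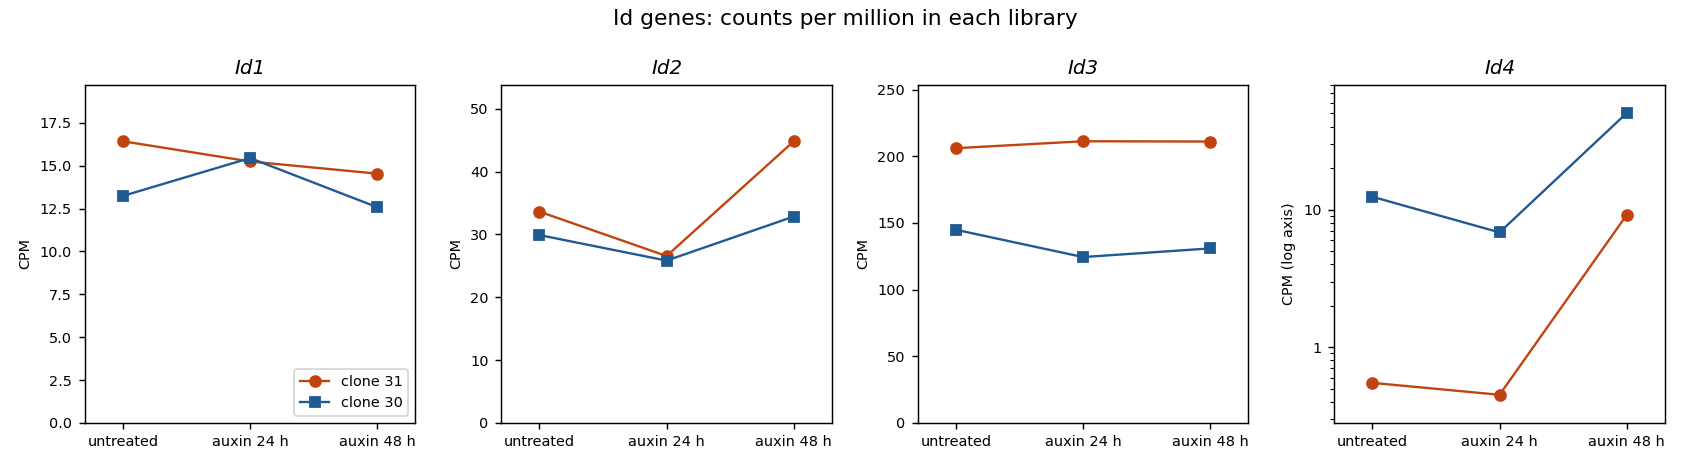
CPM of the 4 Id genes (vertical axes, logarithmic for Id4) in the untreated, 24 h and 48 h libraries, with 1 point per library and lines joining the libraries of clone 31 (circles) and clone 30 (squares). Id4 is highest at 48 h in both clones (9.15 and 50.4 CPM), and Id3 is higher in clone 31 than in clone 30 at every time.

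Of the 10 genes 9 passed the filter on low counts and were tested, Bmp4 being the exception. On treatment group alone, edgeR called 0 of the 9 at 48 h against untreated, with 0% of all 16007 tested genes called. None of the 9 had an unadjusted p under 0.05 in that fit, against 20.7% of all genes, and DESeq2 on treatment group alone also called 0, with 10.4% of all genes called. With the clone as a block, 1 of the 9 was called, Id4, where 17.4% of all tested genes were called (8.35% higher). Its log2 change was 2.77 ± 0.45 (SE, edgeR, adjusted p = 0.02503) with the block and 2.22 ± 1.75 (adjusted p = 0.5221) without it. DESeq2 with the block also called 1 of the 9, Id4, and 21% of all genes. By size this blocked change was the 25th highest of 16007. With a library left out of the blocked fit, which leaves 1 library in a group, the Id4 log2 change ran from 2.04 to 3.85. In some of these fits the Id4 call was lost, and a much smaller share of all genes was called there. The call was also lost with no filter on low counts (edgeR, adjusted p = 0.07576), where 12.1% of all genes were called. With only the 4 libraries of the comparison it was lost too (0.06535), where 0.0195% of all genes were called.

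Markers of astrocytes, as a sum, were also higher at 48 h than untreated in each clone. With the clone as a block, 17.4% of all tested genes were called at 48 h against untreated (8.35% higher), and on treatment group alone 0% were. Of 10 astrocyte markers, all tested, 7 were called higher in the blocked fit, including S100b and Gfap, and 0 were called lower. Their summed level was 2989 and 2647 CPM in clones 31 and 30 at 48 h, against 1442 and 2090 CPM untreated. This sum was higher in clone 30 untreated and in clone 31 at 48 h, and Id4 was higher in clone 30 at both times. The log2 difference of Id4, like the rise of the sum, was larger within clone 31 (4.06) than within clone 30 (2.02). Gfap, the classical astrocyte filament gene, was at 0.942 and 2.72 CPM at 48 h, against 0.275 and 0.722 CPM untreated. Of 9 NPC markers, 8 were tested and 1, Sox2, was called higher, with sums of 5381 and 5459 CPM at 48 h, against 3968 and 4855 CPM untreated. Of 10 neuron markers, 9 were tested, with 0 called higher and 1 lower, Syt1 (blocked log2 change -2.62 ± 0.56 SE, edgeR, adjusted p = 0.03542). Their sums were 1007 and 1098 CPM at 48 h, against 856.5 and 1151 CPM untreated. The 7 markers of choroid plexus and roof plate summed to at most 0.85 CPM in a library, and the 1 tested was not called at 48 h. None of the astrocyte, neuron or choroid plexus markers was at 0 in all libraries, and the part of a change in cell types in the Id4 result was not tested. In these bulk libraries more cells of a type and more RNA per cell cannot be told apart.

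The other Id genes stayed near their untreated levels at 48 h. Id3 had 211.1 and 130.9 CPM in clones 31 and 30 at 48 h, against 206.1 and 144.9 CPM untreated, and its blocked log2 change was -0.06 ± 0.10 (SE). Id1 had 14.5 and 12.6 CPM at 48 h, against 16.4 and 13.2 CPM untreated, a blocked log2 change of -0.13 ± 0.14. For both genes the groups overlapped and the change was no larger than its standard error. Id2 had 44.8 and 32.9 CPM at 48 h, against 33.6 and 29.9 CPM untreated, a blocked log2 change of 0.28 ± 0.13 that was not called (edgeR, adjusted p = 0.1749).

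The make-up of the Id transcript pool followed from this. Id4 made up 1.57% and 11.8% of the summed TPM of the 4 Id genes in clones 31 and 30 at 48 h, against 0.0998% and 2.99% untreated. Id3 remained the main Id transcript everywhere, at 66.2% to 83.0%. The summed TPM itself was 559.6 and 451.5 at 48 h, against 558.8 and 416.4 untreated.

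**Figure D2:**
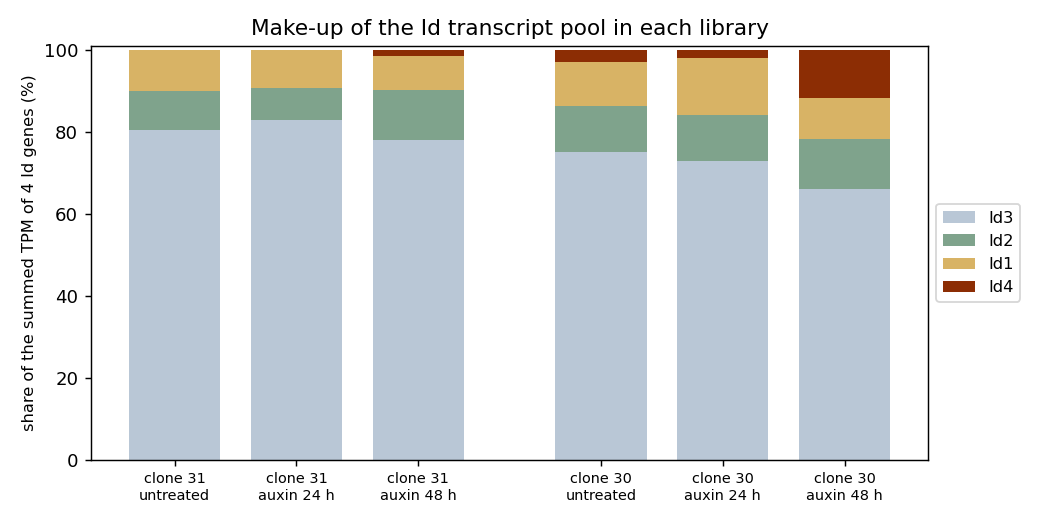
Share of each Id gene in the summed TPM of the 4 Id genes (vertical axis, percent), with 1 bar per library, clone 31 left of clone 30. Id3 fills 66.2% to 83.0% of every bar, and Id4 reaches 11.8% in clone 30 at 48 h.

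After 24 h of auxin none of the genes was called. Of the 9 tested, edgeR called 0 on treatment group alone and 0 with the clone as a block, with 0% of all 16007 genes called in each fit. None of the 9 had an unadjusted p under 0.05, against 1.5% of all genes without the block and 6.17% with it, and DESeq2 also called 0 of the 9 in each fit, with 0.0375% of all genes called without the block and 0.256% with it. Id4 was at 0.451 and 6.83 CPM in clones 31 and 30 at 24 h, against 0.550 and 12.4 CPM untreated. The lower value at 24 h was beyond counting error in clone 30 alone (log2 difference -0.86, 95% interval -1.10 to -0.62). Id2 was at 26.6 and 25.8 CPM at 24 h, below both untreated libraries at 33.6 and 29.9 CPM. Its blocked log2 change was -0.27 ± 0.13 (SE, edgeR, adjusted p = 0.8418). The estimates were below 0 for 7 of the 9 genes, with a median of -0.10, against 0.01 over all tested genes. Among the 7, Bambi was at -0.01. With a library left out of the blocked fit, the estimates of Id3, Id4, Smad7 and Bambi took both signs.

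Setting 48 h against 24 h asks what happened between these times, with 24 h libraries that also enter the comparison above. On treatment group alone edgeR called 0 of the 9 genes and 0% of all genes. At an unadjusted p under 0.05 that fit had 1 of the 9, Id2, and 25.0% of all genes, and DESeq2 without the block called 0 of the 9 and 15.8% of all genes. With the clone as a block 3 of the 9 were called, all higher, where 26.1% of all genes were called (12.3% higher). That is 1961 higher and 2224 lower, against 2549 and 1726 with upper-quartile scaling, which set the median of all genes at 0.11 in place of 0.03. They were Id4, Id2 and Smad6.

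Id4 was at 9.15 and 50.4 CPM in clones 31 and 30 at 48 h, against 0.451 and 6.83 CPM at 24 h. The groups do not overlap, and the blocked log2 change was 3.48 ± 0.46 (SE, edgeR, adjusted p = 0.01616). Id2 (chromosome 12, 25093799 to 25097140) was at 44.8 and 32.9 CPM at 48 h, against 26.6 and 25.8 CPM at 24 h, a blocked log2 change of 0.55 ± 0.13 (adjusted p = 0.03168). Both 48 h libraries were above both 24 h libraries. Since Id2 at 24 h was below its untreated values, it is the later rise that was called and not the difference from untreated cells.

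Smad6 (chromosome 9, 63953076 to 64022059), which blocks BMP receptors and receptor-activated Smads, had 56 and 26 counts at 48 h, against 35 and 19 counts at 24 h. In CPM these are 2.11 and 0.841 at 48 h, against 0.830 and 0.475 at 24 h. Both 48 h values are above both 24 h values, narrowly so for clone 30 at 48 h and clone 31 at 24 h. The blocked log2 change was 1.12 ± 0.32 (edgeR, adjusted p = 0.04878), and the call was lost in DESeq2 with the block (adjusted p = 0.135, with 26.7% of all genes called) and in limma voom with the block (0.0559). With a library left out of the blocked fit, which leaves 1 library in a group, the Smad6 log2 change ran from 0.70 to 1.43. The range was 2.82 to 4.63 for Id4 and 0.37 to 0.74 for Id2. How many of the 9 genes, and what share of all genes, were called depended strongly on the library left out.

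Bmpr1a and Bambi, which sit at the cell surface, gave no call in any auxin comparison in edgeR with or without the block. Bmpr1a, the type I receptor, was at 271.4 and 203.2 CPM in clones 31 and 30 at 48 h, against 244.2 and 203.5 CPM untreated, with a blocked log2 change of 0.08 ± 0.10 (SE). Bambi, which resembles a type I receptor but has no kinase, was at 13.8 and 8.73 CPM at 48 h, against 12.4 and 9.87 CPM untreated. Its blocked log2 change was -0.01 ± 0.15, and the sign of this near-zero value depended on the scaling. For Bmpr1a the fitted log2 difference of clone 31 from clone 30 was 0.29 ± 0.08, larger than this change but not called (adjusted p = 0.06634).

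Among the Smads, Smad7, which inhibits both the BMP and the TGF-beta branch, was at 4.78 and 3.46 CPM at 48 h, against 3.10 and 3.61 CPM untreated. The groups overlapped, and the blocked log2 change was 0.30 ± 0.28 (SE). Smad6 at 48 h, with 2.11 and 0.841 CPM, overlapped the untreated 0.925 and 0.682 CPM and was not called (blocked log2 change 0.83 ± 0.32, edgeR, adjusted p = 0.1212). Smad9 had 6 and 15 counts at 48 h, against 21 and 14 untreated, which is 0.226 and 0.485 CPM at 48 h, against 0.525 and 0.562 CPM untreated. Both 48 h values were lower, but the blocked log2 change of -0.63 ± 0.40 was not called (adjusted p = 0.2991).

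Bmp4 was at the limit of detection throughout. It had 0 and 3 counts in clones 31 and 30 at 48 h and 0 and 0 counts at 24 h, against 5 and 2 counts untreated. A count of 0 allows up to 3 counts, or 0.0698 CPM in the deepest library and 0.1086 CPM in clone 31 at 48 h, so no change of Bmp4 was detectable at this depth. Genes on the opposite strand overlap Id4, Bmp4 and Bmpr1a, and each such gene had at most 4 counts in a library. Bambi-ps1, a pseudogene of Bambi by name, had 17 to 24 counts per library.

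**Figure D3:**
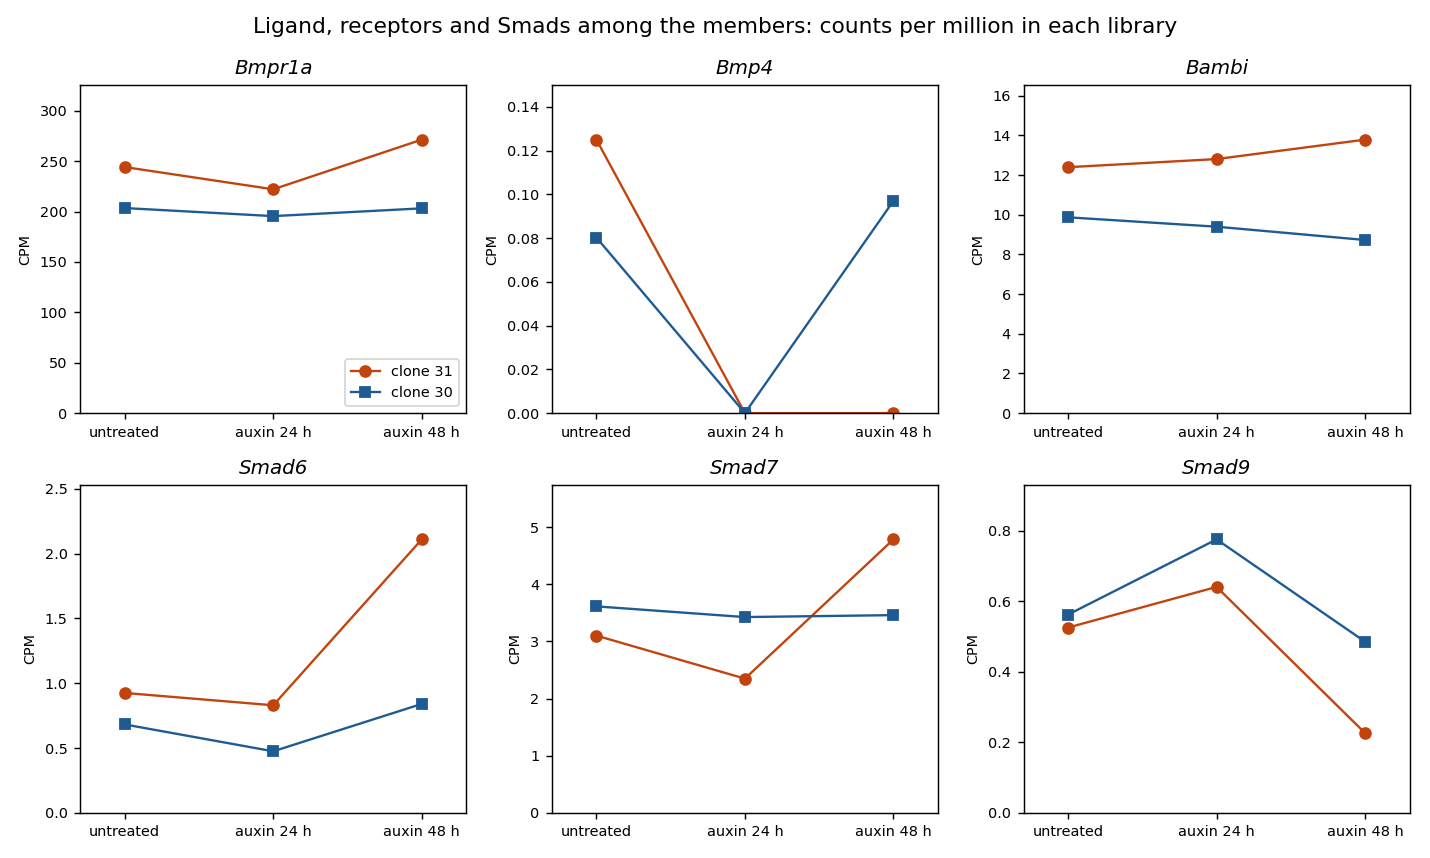
CPM of the receptor Bmpr1a, the ligand Bmp4, the decoy receptor Bambi and the Smads Smad6, Smad7 and Smad9 (vertical axes from 0) in the untreated, 24 h and 48 h libraries of clone 31 (circles) and clone 30 (squares). Bmp4 stays below 0.13 CPM, and Smad6 and Smad7 are highest in clone 31 at 48 h (2.11 and 4.78 CPM).

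The rest of the pathway was read from lists of BMP ligands, antagonists, receptors, Smad regulators and BMP targets, which hold 57 genes besides the 10. Of these, 40 passed the filter. At 48 h against untreated, edgeR called 0 of the 40 on treatment group alone, and with the block 3 were higher and 3 lower, against 17.4% of all genes. The median blocked log2 change of the 40 was 0.06, against 0.02 over all genes.

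The 3 that rose in the blocked fit were a receptor, a co-receptor and a target gene. Bmpr1b, a type I receptor like Bmpr1a, was at 29.4 and 39.7 CPM in clones 31 and 30 at 48 h, against 12.53 and 23.1 CPM untreated (blocked log2 change 1.0 ± 0.14 SE, adjusted p = 0.02403). Per length, Bmpr1b made up 9.03% and 14.7% of the summed TPM of 4 type I receptors at 48 h, against 4.26% and 8.75% untreated, while Bmpr1a remained the main one at 70.8% to 78.4% in all libraries. Rgma, a membrane-anchored BMP co-receptor and axon guidance protein, was at 510.3 and 323.1 CPM at 48 h, against 116.1 and 185.3 CPM untreated (1.47 ± 0.30, adjusted p = 0.03251). For both genes the groups do not overlap. Zfp703, a zinc finger co-repressor, was at 87.7 and 81.2 CPM at 48 h, against 69.3 and 59.5 CPM untreated (0.40 ± 0.10, adjusted p = 0.04609).

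The 3 that fell in the blocked fit were a ligand, an antagonist and a receptor inhibitor. Bmp7 was the one BMP ligand of the list with a mean of at least 1 CPM, and it was at 13.3 and 12.3 CPM in clones 31 and 30 at 48 h, against 25.0 and 20.9 CPM untreated (log2 change -0.84 ± 0.16 SE, edgeR, adjusted p = 0.02921). Bmp8b, Gdf2 and Bmp10 were at 0 counts in all libraries. Fst, the secreted protein follistatin that binds activins and BMPs, was at 3.13 and 3.10 CPM at 48 h, against 4.88 and 6.02 CPM untreated (-0.80 ± 0.18, adjusted p = 0.03821). Fkbp1a, which binds type I receptors and keeps them inactive, was at 205.2 and 215.5 CPM at 48 h, against 307.6 and 308.2 CPM untreated (-0.55 ± 0.09, adjusted p = 0.02503). For each of these 3 genes both 48 h libraries were below both untreated libraries. With a library left out of the blocked fit, which leaves 1 library in a group, the log2 changes of the 3 higher genes kept their sign. They ran from 0.81 to 1.18 for Bmpr1b, 0.93 to 1.98 for Rgma and 0.32 to 0.46 for Zfp703. Those of the 3 lower genes ran from -0.99 to -0.69 for Bmp7, -0.93 to -0.67 for Fst and -0.59 to -0.51 for Fkbp1a. How many of the 40, and what share of all genes, were called depended strongly on the library left out.

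**Figure D4:**
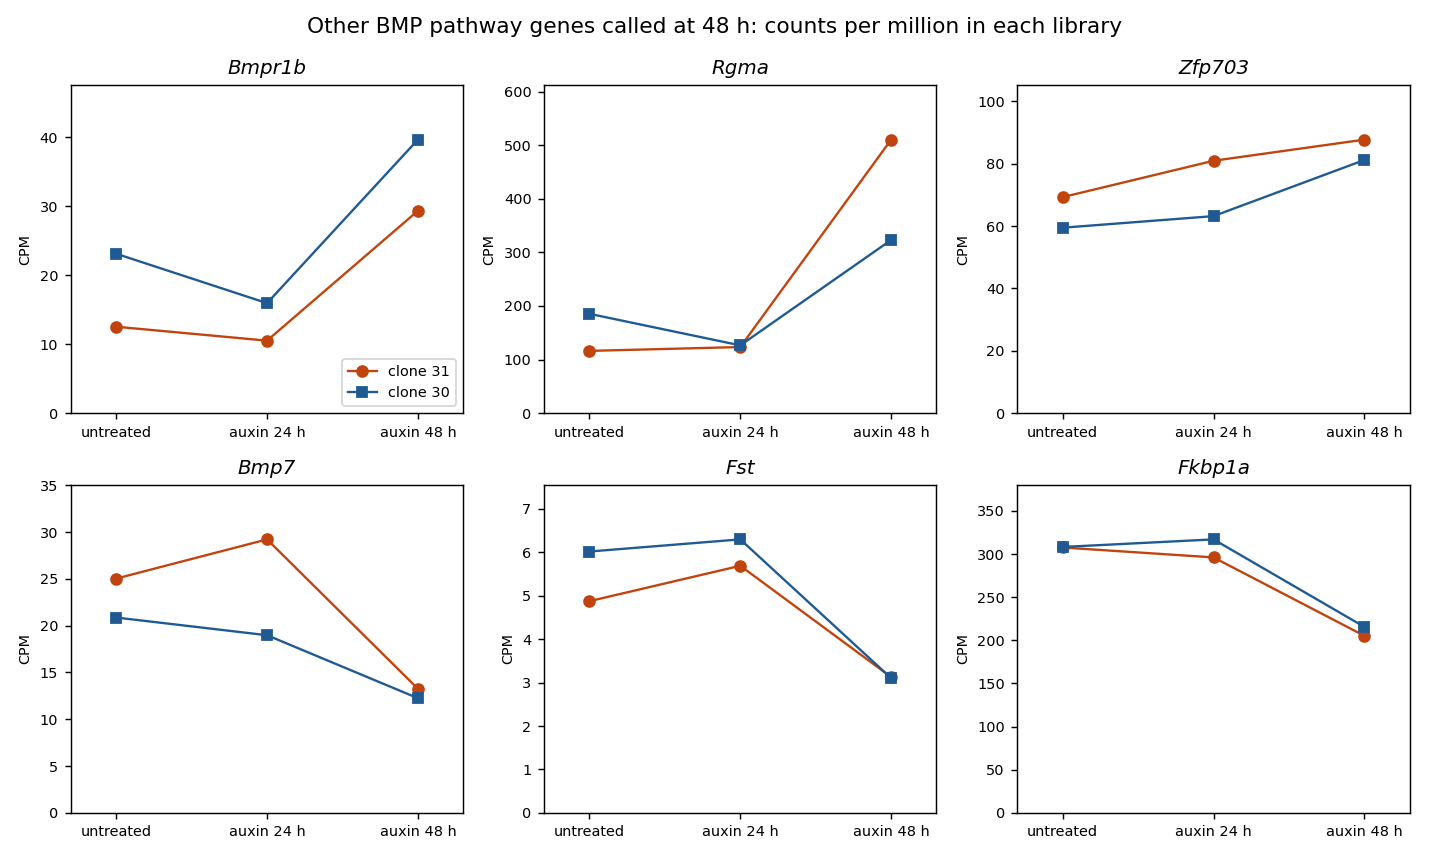
CPM (vertical axes from 0) of the 6 BMP pathway genes outside the 10 that were called at 48 h against untreated with the clone as a block, in clone 31 (circles) and clone 30 (squares). Bmpr1b, Rgma and Zfp703 are higher at 48 h than untreated in both clones, and Bmp7, Fst and Fkbp1a are lower.

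Between 24 h and 48 h the blocked fit called 6 of the 40 higher and 5 lower, against 26.1% of all genes. Besides Bmpr1b and Rgma, the higher ones were the ligands Bmp3 and Gdf6, the antagonist Chrd and Zfp36l1, which promotes decay of AU-rich mRNAs. Bmp3 had 23 and 26 counts in clones 31 and 30 at 48 h, against 1 and 2 counts at 24 h, and untreated cells had 12 and 13. Chrd, the BMP-binding protein chordin, was at 8.85 and 6.43 CPM at 48 h, against 2.70 and 4.30 CPM at 24 h. The lower ones were Bmp7, Fst, Fkbp1a, the type I receptor Acvr1 and the co-receptor Eng. With a library left out of the blocked fit, the log2 change ran from 4.03 to 4.92 for Bmp3, 0.55 to 1.75 for Chrd and -1.09 to -0.69 for Eng. How many of the 40, and what share of all genes, were called depended strongly on the library left out.

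The Smads that carry the BMP signal gave no call at 24 h or 48 h. Per length Smad5 was the main one, at 84.0% to 91.2% of the summed TPM of Smad1, Smad5 and Smad9, and Smad9 was at most 0.323%. The E protein genes Tcf3, Tcf4 and Tcf12, whose products Id proteins bind, were at 83.3 to 207.6 TPM, and 0 of the 3 were called in any auxin comparison with the block. Those blocked fits called 0% of all genes at 24 h, 17.4% at 48 h against untreated and 26.1% at 48 h against 24 h. Between the clones 1 of the 3 was called, Tcf3, higher in clone 31 (log2 difference 0.31 ± 0.08 SE, edgeR, adjusted p = 0.04369, or 0.2895 with the clone as the only term).

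The TGF-beta and activin branch shares Smad4 and Smad7 with the BMP branch and signals through Smad2 and Smad3. Of its 16 listed genes 15 were tested, and with the block 0 were called at 24 h by edgeR (0% of all genes) or DESeq2 (0.256%). At an unadjusted p under 0.05 the edgeR fit had 2 of the 15, and its share of all genes is given above. At 48 h against untreated 0 were higher and 1 lower with the block, against 17.4% of all genes, and at 48 h against 24 h 0 were higher and 2 lower, against 26.1%. On treatment group alone edgeR called 0 of the 15 in each comparison, and 0% of all genes. At an unadjusted p under 0.05 it had 1 at 48 h against untreated and 1 against 24 h, with the shares of all genes given above. DESeq2 called 0 and 1 there, against 10.4% and 15.8% of all genes. The gene called with the block in both 48 h comparisons was Tgfbr2, the type II receptor of TGF-beta. It was at 65.0 and 44.6 CPM in clones 31 and 30 at 48 h, against 140.0 and 56.8 CPM untreated. Its blocked log2 change was -0.74 ± 0.19 (SE, edgeR, adjusted p = 0.04691), and without the block the adjusted p was 0.3868. With a library left out of the blocked fit, which leaves 1 library in a group, its log2 change ran from -1.06 to -0.40, and the call was lost in some of these fits. It was also lost with total counts (edgeR, adjusted p = 0.05427, with 16.1% of all genes called) or a filter of 1 CPM (0.05097, with 19.7%). With only the 4 libraries compared it was lost too (0.09392, with 0.0195%). Against 24 h, the blocked log2 changes were -1.06 ± 0.18 for Tgfbr2 (edgeR, adjusted p = 0.01806) and -0.42 ± 0.09 for Smad2 (0.02434). With a library left out they ran from -1.29 to -0.85 and from -0.44 to -0.40. Both calls, and the share of all genes called, depended on the library left out.

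The clones were compared with treatment group in the model, on 3 libraries each. Of the 9 genes tested 3 were called, Id3 and Bambi higher in clone 31 and Id4 lower, where 16.2% of the 15492 tested genes were called (1174 higher and 1329 lower, or 910 and 1609 when scaled by total counts). Id3 (chromosome 4, 136143497 to 136145755) averaged 209.5 ± 2.9 CPM in clone 31 and 133.4 ± 10.5 CPM in clone 30 (SD across treatment groups, n = 3 each). Its log2 difference was 0.65 ± 0.08 (SE, edgeR, adjusted p = 0.007222). All 3 libraries of clone 31 were above all 3 of clone 30.

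Id4 was lower in clone 31 than in clone 30 at each of the 3 times, with a log2 difference of -3.35 ± 0.39 (edgeR, adjusted p = 0.005884). Bambi (chromosome 18, 3507957 to 3516404) was at 12.4, 12.8 and 13.8 CPM untreated, at 24 h and at 48 h in clone 31, against 9.87, 9.40 and 8.73 CPM in clone 30 (log2 difference 0.47 ± 0.12, adjusted p = 0.04888). The Bambi call was lost with upper-quartile scaling (adjusted p = 0.06751), total counts (0.06096) and a filter of 1 CPM (0.05177). With the clone as the only term, Id3 was called (adjusted p = 0.02314), and Id4 (0.3588) and Bambi (0.1355) were not, where 3.65% of all genes were called. Leaving out either 24 h library with treatment group in the model left Id4 as the 1 call of the 9, against 4.51% and 4.46% of all genes. Leaving out either untreated library left Id3 and Id4, against 10.9% and 11.1% of all genes.

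Of the 38 other BMP genes tested, 4 were higher in clone 31 (Chrdl1, Twsg1, Eng and Smad4) and 3 lower (Bmpr1b, Atoh8 and Msx1), against 16.2% of all genes. The count was 4 with upper-quartile scaling and 11 with no filter on low counts. Atoh8, a bHLH factor gene listed as a BMP target, was at 3.23, 2.42 and 3.47 CPM untreated, at 24 h and at 48 h in clone 31, against 12, 10.9 and 8.89 CPM in clone 30 (log2 difference -1.82 ± 0.19 SE, edgeR, adjusted p = 0.00458). With the clone as the only term 1 of the 38 was called, against 3.65% of all genes. With treatment group in the model, 1 was called after dropping either 24 h library, against 4.51% and 4.46% of all genes. After dropping either untreated library 2 were called, against 10.9% and 11.1% of all genes. After dropping either 48 h library 15 were called, against 30.8% and 30.9%. In the TGF-beta and activin branch 14 genes were tested, of which 4 were higher in clone 31 (Tgfbi, Tgfbr2, Tgfb3 and Tgfbr1) and 3 lower (Ltbp1, Tgfb2 and Smad3). Tgfbi, a secreted matrix protein named for its induction by TGF-beta, had a log2 difference of 2.60 ± 0.20 (adjusted p = 0.002148). Ltbp1, which binds latent TGF-beta in the matrix, had one of -1.94 ± 0.10 (adjusted p = 0.0008339). These 2 were also called with the clone as the only term and after dropping any 1 library. The other 5 were lost on dropping either 24 h library, where 4.51% and 4.46% of all genes were called. Tgfbr1 was also lost on dropping either untreated one, where 10.9% and 11.1% were called.

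Markers of other cell types differed between the clones too, with treatment group in the model. That fit called 16.2% of all tested genes, against 3.65% with the clone as the only term. Astrocyte markers were among those that differed, with 4 of 10 lower in clone 31 and 0 higher. Their summed level was 1442, 1700 and 2989 CPM untreated, at 24 h and at 48 h in clone 31, against 2090, 1875 and 2647 CPM in clone 30, and their part in the clone difference of Id4 was not tested. Neuron markers were called 1 higher (Syt1) and 4 lower (Neurod1, Elavl3, Tubb3 and Syn1) of 9 tested, and the choroid plexus and roof plate list 1 lower of 1 tested, Msx1. Mesenchymal markers were called 3 higher and 1 lower of 7 tested, with sums of 121.7 to 151.8 CPM in clone 31 and 38.9 to 51.3 CPM in clone 30.

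**Figure D5:**
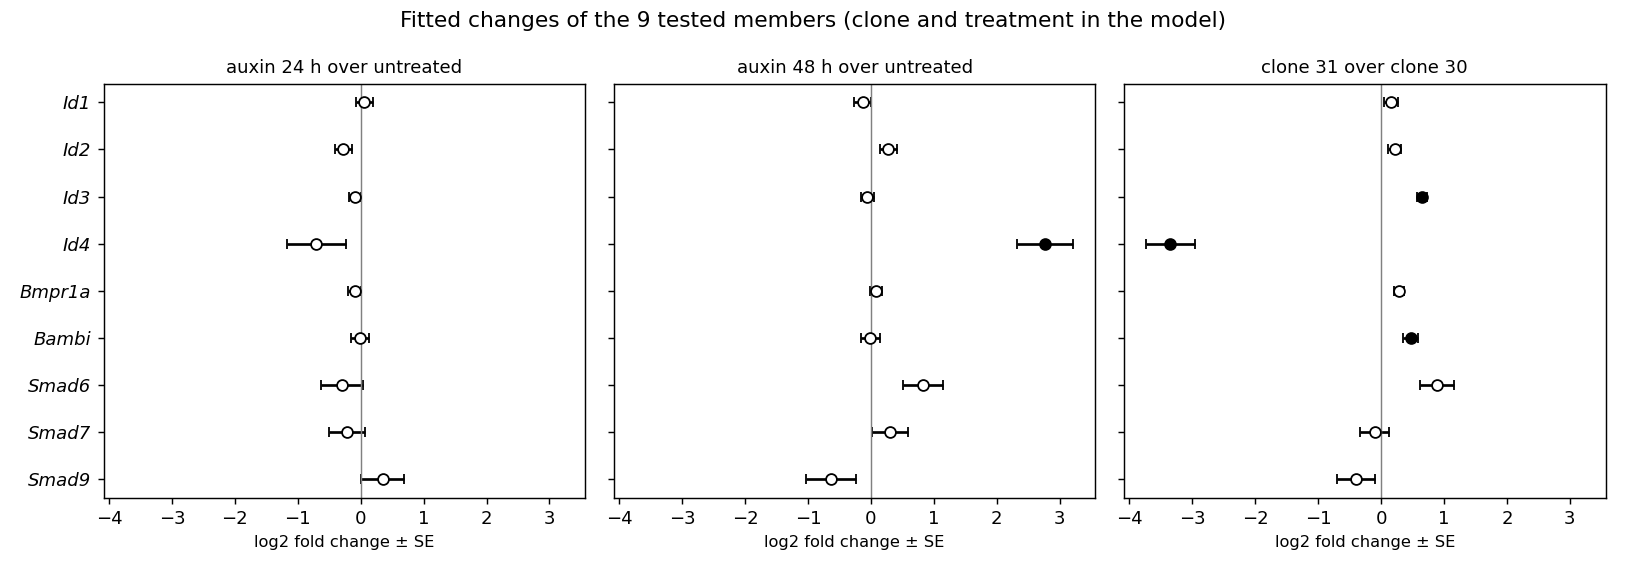
Log2 fold changes with standard errors (horizontal axes) of the 9 tested genes for 24 h over untreated, 48 h over untreated and clone 31 over clone 30, in edgeR fits with clone and treatment group as terms. Filled points passed an adjusted p of 0.05 over all genes: Id4 at 48 h (2.77), and Id3 (0.65), Id4 (-3.35) and Bambi (0.47) between clones.

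The genes whose log2 CPM followed each Id gene most closely over the 6 libraries were taken from 11092 genes with at least 5 CPM on average, as a description with no test. The libraries share clones and times, so high correlations are common: 646 genes had r over 0.9 with Id4, 478 with Id3, 281 with Id2 and 94 with Id1. For Id4 the closest were Pcdhb11 (r = 0.999), Cyp2j9 (0.998) and Abat (0.998). Abat, which encodes the enzyme that breaks down GABA, was at 375.6 and 585.5 CPM in clones 31 and 30 at 48 h, against 185.6 and 396.8 CPM untreated. For Id3 they were Ncapd2, Kif14 and Spag5, which encode proteins of mitotic chromosomes and the spindle (r of 0.993 to 0.997). For Id2 they were Tmtc2, Foxn3 and Apba2 (r of 0.987 to 0.996), and for Id1 Stag2, Ccdc186 and Rab22a (r of 0.980 to 0.990).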

How the data were processed

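RNA was sequenced as read pairs of 100 bases from TruSeq RNA kit v2 libraries, per the labels' protocols. What was deposited are raw counts of exonic read pairs per gene from the authors' featureCounts 1.6.1 run (reverse-strand setting, Ensembl release 92, mm10), per the file headers. The deposited exon length in bp gave TPM. Totals ran from 24603816 to 43008978, and a floor of 3 counts is 0.0698 to 0.1219 CPM. Floors and intervals cover counting error only.

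The test was edgeR's quasi-likelihood F test (version 4.0.16, R 4.3.3; robust, TMM, filterByExpr, 2-sided), fitted to all 6 libraries on treatment group. This kept 16007 genes, or 15492 filtered by clone, and calls are Benjamini-Hochberg adjusted p-values under 0.05 over all of them. The clone comparison had treatment group and clone as terms. Equal numbers in the sample titles mark the same cell line, so the clone pairs libraries across groups. Across genes, deviations of same-clone libraries from their group means had correlations of 0.80, 0.58 and 0.71. Values from the model with clone added as a block stand beside each result that they change. That block brought edgeR's common biological coefficient of variation to 0.121, against 0.271 on treatment group alone. Alternatives were other scalings, filters, DESeq2 1.42.0, limma 3.58.1 voom, the 4 libraries compared, and leaving out each library. Fits were tested on simulated data. CPM values are TMM-normalized, and an edgeR standard error is the size of the log2 change over the square root of F.

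The 10 genes and the lists were chosen with earlier results of these data known. Genes of the wider lists are named by smallest p in the blocked fit, up to 4 per list and comparison with at least 1 CPM on average, and wherever a count of 5 or fewer needs them. Promoter windows came from RefSeq, and the 3 motifs were searched on both strands. One list of cell type markers is not reported here.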

Additional observations from a re-analysis of the deposited data

How the results depend on the processing

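At 48 h against untreated the number of the 9 genes called was 0 on treatment group alone under every scaling, filter and tool. It was 1 with the replicate block alone and with the block joined to another scaling, a filter of 1 CPM, DESeq2 or voom. It was 0 with the block and no filter (12.1% of all genes called) or only the 4 libraries compared (0.0195%). It varied with the library left out, as did the share of all genes called. At 48 h against 24 h it was 3 with the block, with other scalings, no filter and only the 4 libraries. It was 2 with the block and a filter of 1 CPM, DESeq2 or voom, and 0 to 5 when a library was left out. Between clones it was 1 without the block and 2 with upper-quartile scaling, total counts or a filter of 1 CPM. It was 1 to 3 when a library was left out, where 4.46% to 30.9% of all genes were called. At 24 h it was 0 under all 29 alternatives, and the pairing of libraries by clone (replicate block) changed no call there.

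Values that changed sign all lay near 0 or came from leaving out a library, which without the block unbalances the clones. The log2 change of Bambi at 48 h against untreated (main 0.01) was -0.0063 with the block. With the block it was -0.0086 with DESeq2 size factors, -0.0113 with total counts, -0.0064 with no filter and -0.0084 in DESeq2. In voom without the block it was -0.0495, and -0.0176 against 24 h. Bambi at 24 h was 0.0024 in voom with the block, and Id3 at 48 h against untreated 0.0024 with upper-quartile scaling.

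With a library left out, the log2 changes at 24 h against untreated ran from -0.25 to 0.21 for Bambi, -0.22 to 0.041 for Bmpr1a, -0.10 to 0.22 for Id1, -0.50 to 0.27 for Id3, -3.81 to 2.71 for Id4, -0.76 to 0.042 for Smad6 and -0.57 to 0.10 for Smad7. At 48 h against untreated they ran from -0.37 to 0.32 for Bambi, -0.15 to 0.29 for Bmpr1a, -0.28 to 0.032 for Id1, -0.44 to 0.28 for Id3 and -0.17 to 0.71 for Smad7. Against 24 h they ran from -0.35 to 0.33 for Bambi, -0.045 to 0.40 for Bmpr1a and -0.36 to 0.46 for Id3, and between clones from -0.40 to 0.13 for Smad7. Id4 at 48 h against untreated stayed above 0 in all 29 alternatives. With a library left out it was at 0.51 to 5.74 without the block and at 2.04 to 3.85 with the block kept. The cause of these shifts was not tested. The genes under 60 counts in every library (Smad6 and Smad9) and Bmp4 are limited by depth.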
